A study of Homo sapiens with 18 samples.

Results

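The UDP-glucuronosyltransferase transcripts UGT2B15, UGT2B17, UGT2B10, UGT2B11 and UGT2B28, all of the 2B subfamily, were followed in LNCaP cells, a human prostate adenocarcinoma line that responds to androgens. They were chosen by name, as the rows of the count table whose gene symbol was one of these 5, and make up 5 of the 20145 genes in the table. All 5 passed the filter on low counts, which kept 15422 genes for testing. Cells had been exposed for 72 h to ENZA (enzalutamide, an antiandrogen, 10 µM), P-16 (10 µM), BD98 (2 µM), 2-77 (1 µM), ACBI (0.2 µM) or the vehicle DMSO, and each of the 6 groups had 3 libraries. All groups shared the same line and RPMI medium with fetal bovine serum, and the labels state no removal of serum steroids. By its title the series is about compounds selective for the BRD7 bromodomain and their use against prostate cancer, but apart from ENZA the labels tie no compound to a target. Doses were matched only between P-16 and ENZA, so in any other comparison between compounds the dose differs too. The labels do not say whether the 3 libraries of a group came from separate cultures, and each p-value measures the spread between these libraries only.

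UDP-glucuronosyltransferases sit in the membrane of the endoplasmic reticulum and join glucuronic acid, taken from UDP-glucuronic acid, to small lipophilic molecules, which makes them water-soluble and ready for export. In the prostate the family is best known for ending androgen action: UGT2B15 and UGT2B17 conjugate dihydrotestosterone and its metabolites, and UGT2B17 also conjugates testosterone. Both are known from earlier work in LNCaP cells as genes whose transcripts androgens lower. UGT2B28 has been reported to act on steroids, few substrates are established for UGT2B11, and UGT2B10 is best known for conjugating amines such as nicotine. Transcript counts carry no information on enzyme activity, so the name androgen-glucuronidating rests on background for each member.

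The 5 genes lie in one cluster on chromosome 4. In hg38, as the count table gives it, UGT2B17 spans 68537176 to 68576322 (minus strand), UGT2B15 68646597 to 68670652 (minus), UGT2B10 68815994 to 69020396 (plus), UGT2B11 69199951 to 69214748 (minus) and UGT2B28 69280475 to 69295050 (plus). RefSeq on GRCh38.p14 ends UGT2B10 at 68832023 and, at its 5′ side, carries UGT2B11 on to 69224984. The longer span of UGT2B10 in the table overlaps UGT2A3 on the opposite strand, which held 16 counts in all 18 libraries together. The span of UGT2B11 overlaps LOC105377267, also on the opposite strand, with 19.74 counts in all. Each gene has a coding transcript of 6 exons in GENCODE release 29, with a coding length of 1590 bases for UGT2B15 and UGT2B17, 1587 for UGT2B11 and UGT2B28 and 1584 for UGT2B10.

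The members are close paralogs, and the first 120 coding bases from the GENCODE transcripts show how little separates them. Each is printed 5′ to 3′ on its coding strand in GRCh38. Capitals mark bases of UGT2B17 that differ from UGT2B15 at the same place, and bases of UGT2B10 and UGT2B28 that differ from UGT2B11 in an alignment. UGT2B17 differs at 5 places, UGT2B28 at 7 and UGT2B10 at 7, and UGT2B10 also lacks 3 bases.
UGT2B15 (chr4:68670499-68670618, minus): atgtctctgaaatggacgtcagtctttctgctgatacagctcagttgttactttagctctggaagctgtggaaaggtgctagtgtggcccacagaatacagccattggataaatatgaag
UGT2B17 (chr4:68568365-68568484, minus): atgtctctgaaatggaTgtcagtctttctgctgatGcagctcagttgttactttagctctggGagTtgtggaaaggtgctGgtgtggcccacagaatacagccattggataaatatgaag
UGT2B11 (chr4:69214603-69214722, minus): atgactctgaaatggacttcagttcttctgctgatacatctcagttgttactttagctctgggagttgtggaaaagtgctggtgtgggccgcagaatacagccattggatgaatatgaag
UGT2B28 (chr4:69280501-69280620, plus): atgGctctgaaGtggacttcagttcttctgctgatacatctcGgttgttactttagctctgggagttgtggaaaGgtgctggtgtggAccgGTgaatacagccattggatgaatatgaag
UGT2B10 (chr4:68816020-68816139, plus): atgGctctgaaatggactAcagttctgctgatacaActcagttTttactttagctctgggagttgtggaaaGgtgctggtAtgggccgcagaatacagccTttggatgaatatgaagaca

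Over the whole coding sequence the 5 members fell into a pair and a trio. UGT2B15 and UGT2B17 were identical at 96.5% of aligned bases, with 55 differing and a longest identical run of 199 bases. UGT2B11 and UGT2B28 were identical at 97.0%, UGT2B10 and UGT2B11 at 1508 of 1588 aligned bases, and UGT2B10 and UGT2B28 at 94.1%. Between the pair and the trio identity was 84.1% to 85.6%. Of all 50-base windows of the UGT2B17 transcript, 27.8% also occurred in a transcript of another gene, as did 27.8% for UGT2B15, 31.7% for UGT2B10, 35.7% for UGT2B28 and 40.9% for UGT2B11. For UGT2B15 and UGT2B17 nearly all of this was the other of the pair (27.5% of windows in each). The trio shared windows with genes outside the 5 as well: UGT2B11 shared 18.1% with UGT2B28 and 22.4% with the pseudogene UGT2B25P, UGT2B10 shared 10.6% with UGT2B11 and 15.2% with the pseudogene UGT2B27P, and UGT2B28 shared 20.7% with UGT2B11 and 17.6% with the pseudogene UGT2B24P. At 150 bases the shares were 4.88% for UGT2B15 and UGT2B17, 1.39% for UGT2B11 and 0 for UGT2B10 and UGT2B28. The read length and the program that assigned reads to genes are not given in the sources used here.

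**Figure D1:**
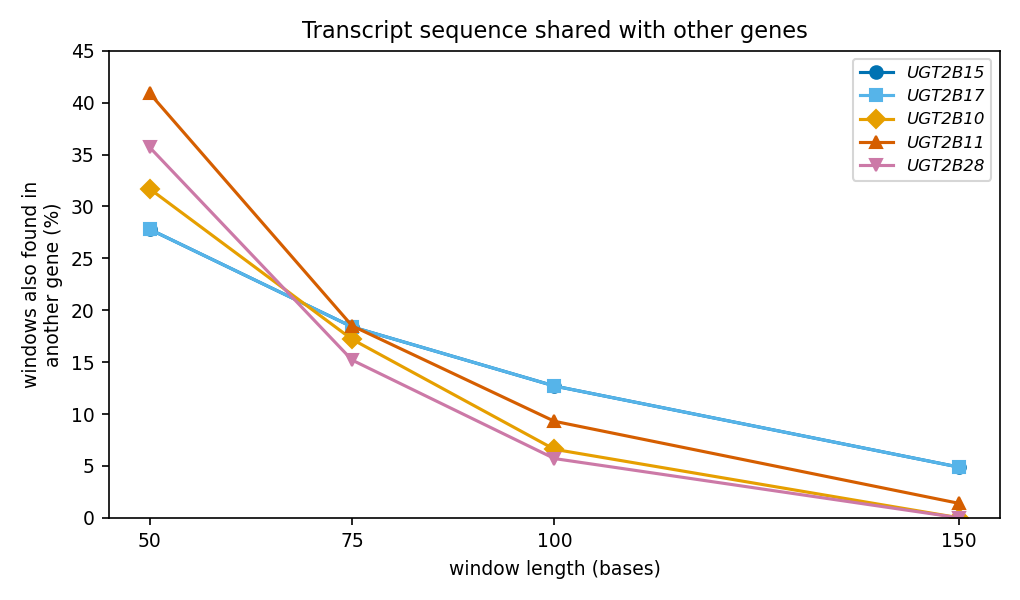
Share of windows of each transcript (percent, vertical axis) that also occur in a transcript of another gene, against window length in bases. Points of UGT2B15 and UGT2B17 coincide, falling to 4.88% at 150 bases from 27.8% at 50 bases, and UGT2B11 has the highest share at 50 bases (40.9%).

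In estimated counts, decimals arise where a read is divided among several genes or transcripts. A value was called decimal where it lay more than 0.005 from a whole number. By that measure all 18 values of UGT2B15 and all 18 of UGT2B17 had decimals, as did 17 of 18 for UGT2B11, 16 of 18 for UGT2B10 and 13 of 18 for UGT2B28, against 33.9% of all values above 0 in the table. How much a member takes from its partner cannot be read from the table, so the split of reads between close members is in doubt for every value below. Sums over the pair, the trio and all 5 are given below beside the single members, because reads divided within such a group stay in its sum. Reads divided between the trio and those pseudogenes would not.

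UGT2B15, which inactivates dihydrotestosterone, was raised by 4 of the 5 compounds and lowered by ACBI. Levels are CPM, counts divided by a library total scaled with TMM, a method that sets most genes equal between libraries. The 3 libraries held 237, 221 and 243 CPM with 2-77, 18.6, 19.1 and 18.9 CPM with ACBI, and 263, 280.3 and 246 CPM with BD98. With P-16 they held 135, 127 and 126 CPM and with ENZA 327, 318 and 322 CPM, against 72.3, 68.2 and 73.5 CPM with DMSO. No library of any compound overlapped the DMSO libraries: all ACBI libraries lay below them and all libraries of the other 4 compounds above. The log2 fold change against DMSO was 1.71 ± 0.05 (SE) with 2-77, -1.92 ± 0.05 with ACBI, 1.88 ± 0.05 with BD98, 0.86 ± 0.05 with P-16 and 2.18 ± 0.05 with ENZA. By edgeR's quasi-likelihood test the Benjamini-Hochberg adjusted p was at most 7.83e-15 (P-16) in these 5 contrasts. With ENZA, 0.791% of the tested genes had a larger absolute change, against 4.45% with P-16 and 8.27% with ACBI.

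UGT2B17, which conjugates testosterone as well as dihydrotestosterone, moved in the same directions with other proportions. Its libraries held 275, 270.2 and 274 CPM with 2-77, 17.9, 17.1 and 17.3 CPM with ACBI, and 465, 507 and 477 CPM with BD98. They held 282, 289 and 278 CPM with P-16 and 371, 357 and 381 CPM with ENZA, against 133, 130.3 and 123 CPM with DMSO. Every ACBI library lay below the DMSO libraries and every library of the other compounds above. The log2 fold change against DMSO was 1.09 ± 0.04 with 2-77, -2.88 ± 0.05 with ACBI, 1.91 ± 0.04 with BD98, 1.14 ± 0.04 with P-16 and 1.52 ± 0.04 with ENZA (SE, adjusted p in edgeR at most 1.72e-19, with P-16). The fall with ACBI was 7.37-fold, and 4.27% of tested genes changed by more there.

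**Figure D2:**
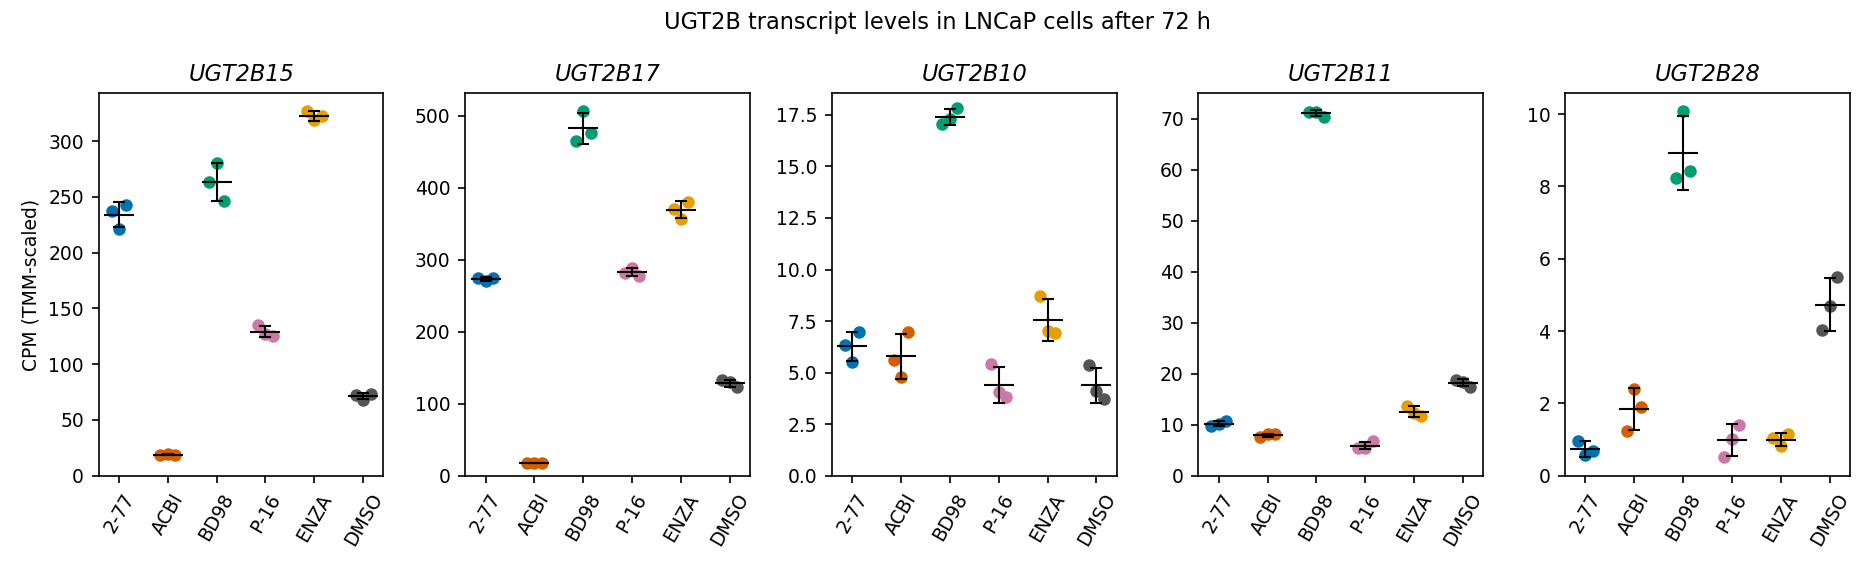
CPM (vertical axes, linear, 1 scale per gene) of each of the 5 UGT2B transcripts in the 18 libraries, by group along the horizontal axis; points are libraries, horizontal marks the mean and bars the SD of 3. All 5 genes have their highest level with BD98 except UGT2B15, which is highest with ENZA (322.7 CPM on average).

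UGT2B10, the enzyme of amine conjugation, was low in all groups and was raised mainly by BD98. It held 6.36, 5.53 and 6.95 CPM with 2-77, 5.63, 4.79 and 6.96 CPM with ACBI, and 17, 17.3 and 17.8 CPM with BD98. It held 5.41, 4.04 and 3.8 CPM with P-16 and 8.74, 7.03 and 6.9 CPM with ENZA, against 5.36, 4.1 and 3.7 CPM with DMSO. The BD98 libraries stood well above all others, those of 2-77 and ENZA lay just above the DMSO libraries, and those of ACBI and P-16 overlapped them. The log2 fold change was 2.00 ± 0.15 with BD98 (adjusted p = 2.52e-12 in edgeR), 0.79 ± 0.15 with ENZA (0.000139), 0.53 ± 0.16 with 2-77 (0.00692) and 0.42 ± 0.16 with ACBI (0.0204). With P-16 it was 0.04, with a 95% interval of -0.30 to 0.38 (adjusted p = 0.893). A larger absolute change was found in 1.23% of the tested genes with BD98, 7.73% with ENZA, 16.5% with 2-77 and 52.3% with ACBI. The ACBI call was lost without ACBI replicate 3 (log2 0.28, adjusted p = 0.131), without DMSO replicate 2 (0.38, adjusted p = 0.067) and without DMSO replicate 3 (0.31, adjusted p = 0.126). The 2-77 call was lost without DMSO replicate 3 (0.42, adjusted p = 0.0615).

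UGT2B11 was raised by BD98 and lowered by the other 4 compounds. Its libraries held 9.82, 10.1 and 10.7 CPM with 2-77, 7.54, 8.13 and 8.12 CPM with ACBI, and 71.4, 71.5 and 70.4 CPM with BD98. They held 5.49, 5.44 and 6.75 CPM with P-16 and 13.8, 12.3 and 11.7 CPM with ENZA, against 18.9, 18.5 and 17.4 CPM with DMSO. No compound's libraries overlapped those of DMSO, and the 3 BD98 values spanned about 1 CPM. The log2 fold change was 1.96 ± 0.07 with BD98, -0.84 ± 0.08 with 2-77, -1.20 ± 0.08 with ACBI, -1.64 ± 0.09 with P-16 and -0.54 ± 0.08 with ENZA (SE, adjusted p in edgeR at most 1.81e-06). ENZA and 2-77 thus lowered UGT2B11 while they raised UGT2B15 and UGT2B17, as did P-16. Of the tested genes, 0.83% had a larger absolute change with P-16, 1.29% with BD98, 7.95% with 2-77, 14.7% with ENZA and 16.9% with ACBI.

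UGT2B28, reported to act on steroids, followed UGT2B11 at a lower level. It held 0.973, 0.561 and 0.691 CPM with 2-77, 1.24, 2.39 and 1.91 CPM with ACBI, and 8.24, 10.1 and 8.44 CPM with BD98. It held 0.529, 1.02 and 1.4 CPM with P-16 and 1.03, 0.814 and 1.16 CPM with ENZA, against 4.02, 4.7 and 5.48 CPM with DMSO. The BD98 libraries all lay above those of DMSO, and the libraries of the other compounds all lay below. Counts behind these values were small, between 13 counts in 1 P-16 library and 252 counts in 1 BD98 library. The log2 fold change was -2.64 ± 0.26 with 2-77, -1.37 ± 0.23 with ACBI, 0.90 ± 0.20 with BD98, -2.32 ± 0.26 with P-16 and -2.28 ± 0.25 with ENZA (SE, adjusted p in edgeR at most 0.000404, with BD98). With P-16, 0.253% of the tested genes had a larger absolute change, with 2-77 0.499% and with ENZA 0.72%. With BD98 7.85% did, and with ACBI 14%.

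Read by compound, BD98 was the one with which all 5 members rose: 5 of 5 were called higher, where 24.5% of all 15422 genes were called higher and 24.5% lower (49.0% in all). With 2-77, 3 members rose and 2 fell, beside 20.5% of all genes higher and 20.2% lower (40.7% in all). With ENZA, 3 rose and 2 fell, beside 18.2% higher and 18.1% lower (36.3%). With P-16, 2 rose, 2 fell and 1 was not called, beside 12.4% higher and 11.6% lower (24.0%). With ACBI, 1 rose and 4 fell, beside 35.4% higher and 36.6% lower, and since 72.0% of all genes were called in that contrast the count of calls says little about the members. The median log2 fold change of the 5 was 0.53 with 2-77, -1.37 with ACBI, 1.91 with BD98, 0.04 with P-16 and 0.79 with ENZA. The median of all genes lay within 0.01 of 0 in each, which TMM scaling brings about. Without regard to sign, the median log2 fold change of all genes was 0.185 with 2-77, 0.441 with ACBI, 0.224 with BD98, 0.134 with P-16 and 0.169 with ENZA. These contrasts share the 3 DMSO libraries.

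**Figure D3:**
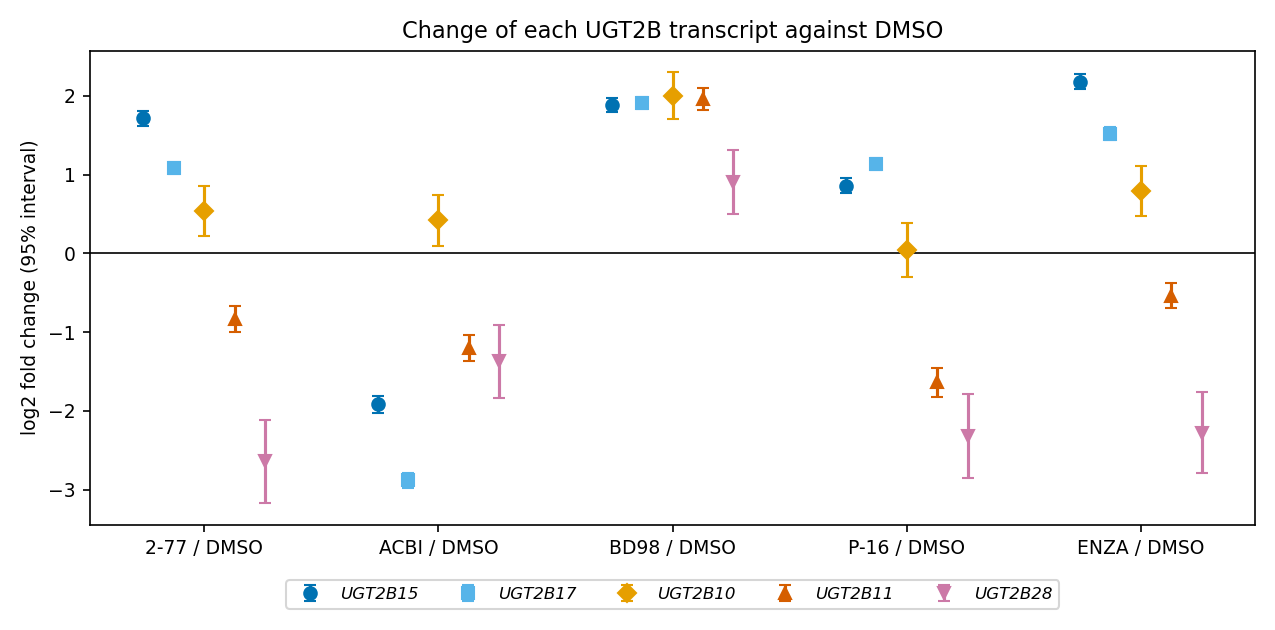
Log2 fold change of each UGT2B transcript (vertical axis, points with 95% intervals from the edgeR fit) for each compound against DMSO. UGT2B15 and UGT2B17 lie above 0 for all compounds but ACBI, whereas UGT2B11 and UGT2B28 lie above 0 with BD98 alone among the 5 compounds.

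Sums were taken over the pair and over the trio. The sum of the pair had the direction of both its members with every compound, whereas that of the trio fell with 2-77, ACBI and ENZA, with which UGT2B10 alone of its members rose. UGT2B15 and UGT2B17 together changed by log2 1.34 ± 0.04 with 2-77, -2.46 ± 0.04 with ACBI, 1.90 ± 0.04 with BD98, 1.04 ± 0.04 with P-16 and 1.79 ± 0.04 with ENZA (SE). UGT2B10, UGT2B11 and UGT2B28 together changed by -0.66 ± 0.07 with 2-77, -0.81 ± 0.07 with ACBI, 1.83 ± 0.07 with BD98, -1.28 ± 0.08 with P-16 and -0.38 ± 0.07 with ENZA. The adjusted p in edgeR was at most 9.49e-05 for the trio (ENZA) and at most 4.4e-19 for the pair (P-16). With 2-77, P-16 and ENZA the pair rose while the trio fell, in sums that do not depend on how reads were divided within the pair or within the trio. Between the pair and the trio, 3 of the 2028 windows of 50 bases of UGT2B17 occurred in UGT2B10 and 3 in UGT2B11.

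All 5 members together came to 524.1 ± 14.6 CPM with 2-77, 51.9 ± 1.1 CPM with ACBI, 843.5 ± 36.8 CPM with BD98, 423.1 ± 7.0 CPM with P-16 and 713.4 ± 15.4 CPM with ENZA, against 227.5 ± 5.1 CPM with DMSO (SD, n = 3 each). In log2 units the difference from DMSO was 1.20 with 2-77, -2.13 with ACBI, 1.89 with BD98, 0.90 with P-16 and 1.65 with ENZA. The libraries of each compound did not overlap those of DMSO, and each two-sided exact permutation test gave p = 0.1, the smallest that 3 against 3 libraries allow. In bulk RNA, fewer cells that express a gene and less RNA per cell cannot be told apart.

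The balance within the pair differed between compounds. The ratio of UGT2B15 to UGT2B17 counts was 0.856 ± 0.034 with 2-77, 1.08 ± 0.04 with ACBI, 0.545 ± 0.025 with BD98, 0.457 ± 0.020 with P-16 and 0.874 ± 0.024 with ENZA, against 0.555 ± 0.037 with DMSO (SD, n = 3 each). UGT2B15 thus gained on UGT2B17 with 2-77 (log2 difference 0.63), ACBI (0.96) and ENZA (0.66), in which no library overlapped DMSO (exact permutation p = 0.1 each, two-sided, the smallest possible). With P-16 the ratio was lower than with DMSO in all 3 libraries (log2 difference -0.28, exact permutation p = 0.1). With BD98 it overlapped DMSO (log2 difference -0.02, exact permutation p = 0.9). Reads moved between the 2 genes by the counting would alter this ratio, and that was not tested.

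Levels of different genes were set side by side per kilobase of transcript. UGT2B17 made up 57.1% ± 0.9 of the summed CPM per kilobase of the 5 members with BD98 and 56.4% ± 1.3 with DMSO (SD, n = 3 each). UGT2B15 made up 31.1% ± 1.0 with BD98 and 31.3% ± 1.4 with DMSO, and UGT2B11 8.37% ± 0.32 with BD98 and 7.95% ± 0.19 with DMSO. BD98 thus had a make-up close to that of DMSO at a far higher sum, apart from UGT2B28, which had 1.19% ± 0.09 with BD98 and 2.35% ± 0.42 with DMSO. UGT2B10 had 2.22% ± 0.12 with BD98 and 2.06% ± 0.36 with DMSO. P-16 had the highest share of UGT2B17 (66.7% ± 1.0), and UGT2B15 had 44.5% ± 0.9 with 2-77 and 45.2% ± 0.6 with ENZA. ACBI stood apart: UGT2B15 had 35.9% ± 0.8, UGT2B17 33.2% ± 1.4, UGT2B11 15% ± 0.5 and UGT2B10 11.9% ± 2.0, since the pair fell further than the trio. These shares were not tested.

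**Figure D4:**
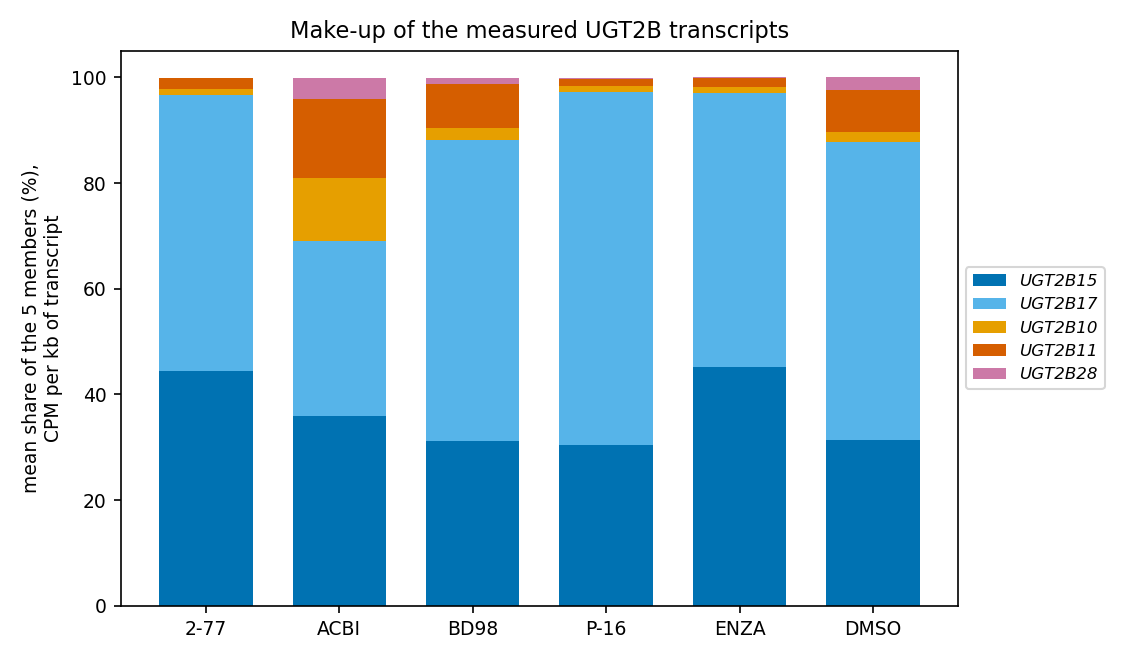
Mean share (percent of the summed CPM per kilobase of transcript, vertical axis) of each UGT2B member, by group; each stacked bar averages 3 libraries. UGT2B17 and UGT2B15 together fill most of the bar in every group. UGT2B11 takes 7.95% with DMSO and 8.37% with BD98. With ACBI, UGT2B10 and UGT2B11 take 11.9% and 15%.

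Ordered from low to high, UGT2B15 ran ACBI, DMSO, P-16, 2-77, BD98, ENZA, and every neighbouring pair of groups differed. The closest neighbours were 2-77 and BD98 (log2 difference of 2-77 from BD98 -0.17, adjusted p = 0.00178 in edgeR). UGT2B17 ran ACBI, DMSO, 2-77, P-16, ENZA, BD98, and 2-77 and P-16 could not be separated (log2 -0.05, 95% interval -0.13 to 0.03, adjusted p = 0.371). UGT2B10 ran DMSO, P-16, ACBI, 2-77, ENZA, BD98. ACBI and P-16 passed (log2 0.38, adjusted p = 0.0327) with overlapping libraries, and without ACBI replicate 3 (0.23, adjusted p = 0.206), P-16 replicate 2 (0.31, adjusted p = 0.123) or P-16 replicate 3 (0.29, adjusted p = 0.137) the call was lost. Among its other neighbours DMSO and P-16 were not separated, nor were 2-77 and ACBI (log2 0.12, interval -0.18 to 0.41, adjusted p = 0.486) or 2-77 and ENZA (log2 -0.26, interval -0.54 to 0.03, adjusted p = 0.371). UGT2B11 ran P-16, ACBI, 2-77, ENZA, DMSO, BD98 with every neighbour apart, the closest being 2-77 and ENZA (log2 -0.30, adjusted p = 0.022), a call that was lost without 2-77 replicate 1 (-0.27, adjusted p = 0.124), 2-77 replicate 2 (-0.29, adjusted p = 0.0746), ENZA replicate 1 (-0.24, adjusted p = 0.157) or ENZA replicate 2 (-0.32, adjusted p = 0.0517). UGT2B28 ran 2-77, P-16, ENZA, ACBI, DMSO, BD98, and neighbours among the lowest 3 were not separated (adjusted p = 0.523 for 2-77 against P-16 and 0.942 for P-16 against ENZA).

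The share of all genes called, against which these differences stand, was 70.2% for 2-77 against ACBI, 42.0% for 2-77 against BD98, 22.4% for 2-77 against P-16, 71.5% for ACBI against P-16, 70.1% for ACBI against ENZA and 42.5% for BD98 against ENZA.

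At the matched dose, P-16 had 4 of 5 members lower than ENZA, where 10.3% of all genes were lower (21.4% called in either direction). UGT2B15 differed by log2 -1.32 ± 0.04, UGT2B11 by -1.10 ± 0.09, UGT2B10 by -0.75 ± 0.15 and UGT2B17 by -0.39 ± 0.04 (SE, adjusted p in edgeR at most 0.000518). UGT2B28 did not pass (log2 -0.04, 95% interval -0.68 to 0.59). At their unequal doses 2-77 and ENZA differed little across the transcriptome, with 5.54% of all genes called. The 3 members called between them, UGT2B15 (log2 -0.46 ± 0.04), UGT2B17 (-0.44 ± 0.04) and UGT2B11 (-0.30 ± 0.08), were all lower with 2-77, as were 2.60% of all genes. BD98 and ENZA parted within the pair: UGT2B17 was higher with BD98 (log2 0.39 ± 0.04, adjusted p = 1.03e-09) and UGT2B15 lower (-0.30 ± 0.04, adjusted p = 1.43e-06), while UGT2B11 and UGT2B28 were higher by 2.50 ± 0.07 and 3.18 ± 0.24.

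**Figure D5:**
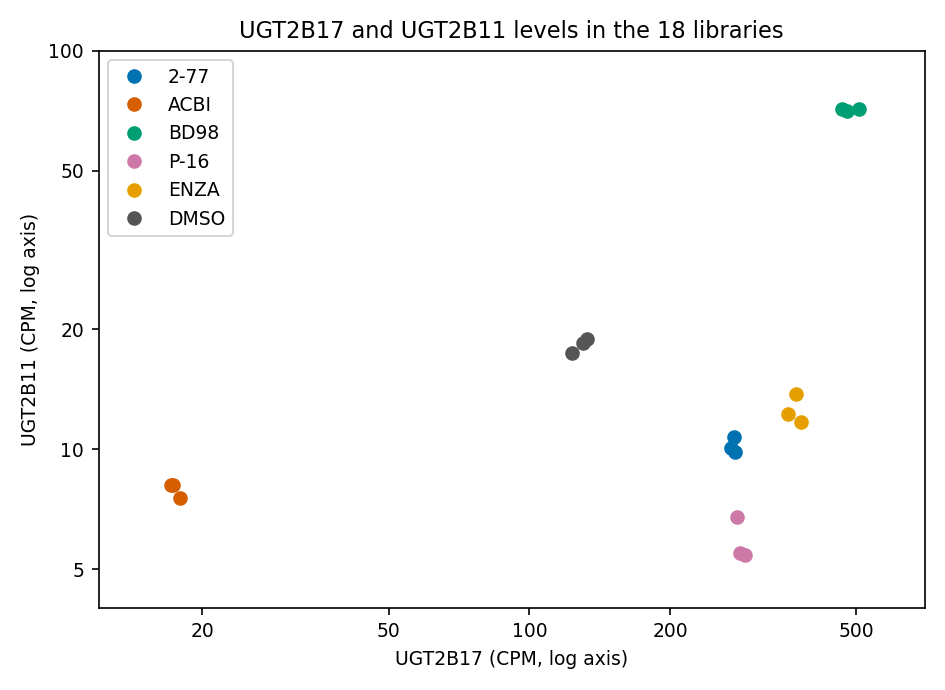
CPM of UGT2B17 (horizontal, log axis) against CPM of UGT2B11 (vertical, log axis), 1 point per library and 1 colour per group. Libraries with 2-77, P-16 and ENZA lie right of and below the DMSO libraries, BD98 libraries right of and above them, and ACBI libraries left of and below them.

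Among the other glucuronosyltransferase genes few had counts enough for a test. Of 17 listed, 12 were in the table used and 5 passed the filter (UGT1A1, UGT1A6, UGT2B4, UGT2B7 and UGT8). UGT2B7, another 2B gene with activity on steroids and drugs, had 78.3 counts over the 3 BD98 libraries (1.10 CPM ± 0.05, SD). Over the 3 DMSO libraries it had 4 counts (adjusted p = 2.27e-06 in edgeR). Of the 50-base windows of UGT2B10, 5.84% occur in UGT2B7. With ACBI, UGT2B4 and UGT2B7 had 0 counts in all 3 libraries, which allows up to 0.117 to 0.13 CPM per library (3 counts, counting error only), against 35 counts of UGT2B4 and 4 of UGT2B7 with DMSO. UGT8, which makes galactosylceramide, had the highest level of these, with 0.511 ± 0.289 CPM with ACBI, 2.45 ± 0.08 CPM with BD98 and 2.52 ± 0.20 CPM with ENZA, against 3.89 ± 0.55 CPM with DMSO (SD). It fell with ACBI (log2 -2.93), BD98 (-0.67) and ENZA (-0.62). UGT1A1, the bilirubin enzyme, whose last exons are shared with the other UGT1A transcripts, was called lower with ACBI (-1.74) and BD98 (-2.79) and higher with P-16 (1.54), at no more than 1.28 CPM in any library. Of the 5 tested, 4 fell with ACBI, 1 rose and 2 fell with BD98, 1 rose with P-16, 1 fell with ENZA and 0 were called with 2-77 in edgeR. With 2-77, 0 had an unadjusted p under 0.05 and 0 were called by DESeq2, which called 2 of the 4 falls with ACBI and did not call the rise of UGT1A1 with P-16.

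Transcripts of genes for glucuronic acid supply and glucuronide handling, which measure neither supply nor export, were read next. Of 13 such genes listed, 10 were tested. With 2-77, 4 rose and 1 fell, with ACBI 4 and 3, with BD98 4 and 2, with P-16 3 and 2, and with ENZA 4 and 3, and the median of the 10 lay within 0.1 of 0 in each contrast. UGDH, which makes UDP-glucuronic acid, fell with ACBI (31.6 ± 0.8 CPM against 48.7 ± 3.8 CPM with DMSO, log2 -0.62, adjusted p = 5.33e-10) and BD98 (39.4 ± 2.3 CPM, log2 -0.31, adjusted p = 0.00016) and did not pass with 2-77, P-16 or ENZA. PGM1, which feeds the pathway with glucose 1-phosphate, rose with all 5 compounds, between log2 0.21 with ENZA and 0.88 with ACBI. ABCC4, an exporter of organic anions that include steroid conjugates, had 232.6 ± 6.6 CPM with 2-77, 346.1 ± 10.7 CPM with P-16, 277.6 ± 5.9 CPM with ENZA and 441.7 ± 11.03 CPM with BD98, against 520.7 ± 12.4 CPM with DMSO. It fell with 2-77 (log2 -1.16), P-16 (-0.59), ENZA (-0.91) and BD98 (-0.24) and did not pass with ACBI (0.05, adjusted p = 0.197).

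Enzymes that make or interconvert androgens showed no common direction. Of 35 listed, 22 were tested: 5 rose and 5 fell with 2-77, 5 and 12 with ACBI, 8 and 4 with BD98, 5 and 3 with P-16, and 2 and 3 with ENZA. Of all tested genes, 20.5% rose and 20.2% fell with 2-77, 35.4% and 36.6% with ACBI, and 24.5% and 24.5% with BD98. With P-16 12.4% rose and 11.6% fell, and with ENZA 18.2% and 18.1%. The counts of the other gene lists stand beside the same shares. HSD17B14, a dehydrogenase that oxidises active steroids, rose with all 5 compounds, by log2 1.19 with 2-77, 2.47 with ACBI, 1.15 with BD98, 0.66 with P-16 and 1.01 with ENZA. RDH10, a retinol dehydrogenase, rose with 2-77 (1.45), BD98 (0.83), P-16 (0.89) and ENZA (1.68) and fell with ACBI (-0.21, adjusted p = 0.0301), the same directions as UGT2B15 and UGT2B17. HSD11B2, which inactivates cortisol, fell with ACBI (5.10 ± 0.66 CPM against 47.0 ± 1.4 CPM with DMSO, log2 -3.21) and BD98 (-0.76) and rose with P-16 (0.23, adjusted p = 0.00714).

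FOXA1, a pioneer factor that opens chromatin in prostate cells and is among the factors reported to act on UGT2B genes, fell with BD98 (log2 -0.42, adjusted p = 8.61e-12 in edgeR), rose with ACBI (0.31) and 2-77 (0.09, adjusted p = 0.0326) and did not pass with P-16 (0.00) or ENZA (0.04). GATA2, a zinc finger factor, fell with ACBI (-1.68) and rose with 2-77 (0.27), P-16 (0.36) and ENZA (0.38). Over the 14 tested factors reported to act on UGT2B genes, 7 rose and 3 fell with 2-77, 6 and 5 with ACBI, 3 and 5 with BD98, 6 and 2 with P-16, and 7 and 3 with ENZA.

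Because the pair is known to be lowered by androgens, other genes of known androgen response were read beside it. Of 9 androgen-repressed genes, 8 rose with 2-77, 7 with P-16 and 9 with ENZA, 4 rose and 3 fell with BD98, and 4 rose and 5 fell with ACBI. Their median log2 fold change was 1.21 with 2-77, 0.67 with P-16, 1.15 with ENZA, -0.0018 with BD98 and -0.76 with ACBI. Of 16 androgen-induced genes, 13 fell with each of 2-77, P-16 and ENZA, 14 with BD98 and 7 with ACBI, while 3 rose with 2-77, 2 with P-16, 2 with ENZA and 6 with ACBI. With BD98 the UGT2B pair thus rose by log2 1.88 and 1.91 beside androgen-repressed genes of both directions, among them CAMK2N1 (0.72) and BCHE (0.98) higher and CDK8 (-0.73) lower. BCHE, the cholinesterase gene, had the directions of the pair in every contrast: log2 0.55 with 2-77, -2.47 with ACBI, 0.98 with BD98, 0.65 with P-16 and 1.15 with ENZA. CAMK2N1 had them too, with log2 1.21 with 2-77, -3.59 with ACBI, 0.72 with BD98, 1.27 with P-16 and 1.45 with ENZA. None of the other androgen-repressed genes listed did. KLK3, the androgen-induced gene of prostate-specific antigen, had 737.0 ± 23.7 CPM with 2-77, 654.0 ± 24.0 CPM with ACBI, 2557 ± 50 CPM with BD98, 2399 ± 15 CPM with P-16 and 961.2 ± 1.6 CPM with ENZA, against 4277 ± 47 CPM with DMSO.

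Promoters from RefSeq, 250 bases before to 50 after the start on GRCh38.p14, were matched for UGT2B15, UGT2B10 and UGT2B11. They are printed 5′ to 3′ on the strand of the gene because UGT2B10 and UGT2B11 have promoters alike at most bases yet unequal responses. The start used for UGT2B11 lies inside its RefSeq span, which runs on to 69224984, and no promoter at that outer end was compared. Capitals mark exact matches, on either strand, of TGTTCT (a core steroid response motif), TGTTTAC (a FOXA motif), GTTAAT (an HNF1 motif), TATAAA, or the inverted repeat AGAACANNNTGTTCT, which contains that core motif.
UGT2B15 (chr4:68670603-68670902, minus): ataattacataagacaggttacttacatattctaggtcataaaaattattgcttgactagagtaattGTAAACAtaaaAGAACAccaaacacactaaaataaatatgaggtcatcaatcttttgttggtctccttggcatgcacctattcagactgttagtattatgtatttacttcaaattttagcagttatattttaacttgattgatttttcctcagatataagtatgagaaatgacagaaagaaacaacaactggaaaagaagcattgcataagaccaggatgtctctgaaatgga
UGT2B10 (chr4:68815744-68816043, plus): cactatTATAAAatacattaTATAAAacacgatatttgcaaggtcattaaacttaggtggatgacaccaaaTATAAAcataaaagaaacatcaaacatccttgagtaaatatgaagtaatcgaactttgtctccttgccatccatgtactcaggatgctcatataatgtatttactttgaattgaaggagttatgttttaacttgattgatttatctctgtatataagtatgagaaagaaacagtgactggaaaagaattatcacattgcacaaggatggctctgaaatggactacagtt
UGT2B11 (chr4:69214699-69214998, minus): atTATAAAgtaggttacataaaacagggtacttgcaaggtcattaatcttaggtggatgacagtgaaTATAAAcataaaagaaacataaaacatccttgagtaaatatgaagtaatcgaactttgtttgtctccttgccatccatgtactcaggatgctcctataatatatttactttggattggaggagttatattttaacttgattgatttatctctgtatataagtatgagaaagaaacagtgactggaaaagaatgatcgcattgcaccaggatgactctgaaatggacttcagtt

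In this window UGT2B15 held TGTTCT on the reverse strand at position -172 and TGTTTAC on the reverse strand at -183, counted from the start. TGTTCT occurred in 15.2% and TGTTTAC in 3.50% of all 27305 promoters of the table. UGT2B10 held TATAAA at -244, -230 and -179 and UGT2B11 at -248 and -183, a motif found in 12.3% of promoters. GTTAAT (7.09% of promoters) and the inverted repeat (1 promoter of 27305) did not occur in these windows as searched. Promoters of UGT2B10 and UGT2B11 were identical at 90.1% of aligned bases, whereas UGT2B15 was identical to UGT2B10 at 220 of 319 and to UGT2B11 at 225 of 319. Beside that likeness, UGT2B10 and UGT2B11 both rose with BD98 (log2 2.00 and 1.96), whereas with ENZA UGT2B10 rose (0.79) and UGT2B11 fell (-0.54).

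The levels of the members were compared across the 18 libraries. Pearson's r of log2 CPM was 0.963 between UGT2B15 and UGT2B17, 0.835 between UGT2B11 and UGT2B28, 0.812 between UGT2B10 and UGT2B11, 0.482 between UGT2B10 and UGT2B28, 0.460 between UGT2B10 and UGT2B15, 0.407 between UGT2B10 and UGT2B17 and 0.0344 between UGT2B17 and UGT2B28. These are descriptions over libraries of 6 groups, which share treatment, and the paralogs also share reads. Without the 3 ACBI libraries r was 0.882 for UGT2B15 and UGT2B17, 0.872 for UGT2B11 and UGT2B28 and 0.824 for UGT2B10 and UGT2B11. For UGT2B10 it was then 0.493 with UGT2B28, the more alike in sequence, 0.668 with UGT2B15 and 0.770 with UGT2B17.

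The genes whose pattern was most like each member were taken from 12647 genes by the same r over 18 libraries, with no test. For UGT2B17 they were BTG2 (0.993), PLA2G2A (0.990), BCHE (0.989), PRSS8 (0.989) and SHB (0.988). For UGT2B15 they were TMSB4X (0.987), SLC37A3 (0.983), DENND2B (0.982), TRIM38 (0.978) and MID1 (0.976). BRD8 (0.945), TAF8 (0.939), GNAI1 (0.925), ZNF587 (0.909) and UBR7 (0.896) stood nearest to UGT2B11. LAPTM4A (0.960), RBBP5 (0.941), UBA2 (0.934) and ADAM10 (0.927) stood nearest to UGT2B10, and THRB (0.924), B2M (0.920), NFKBIA (0.920), ELOVL5 (0.911) and MXD1 (0.908) to UGT2B28. Without the ACBI libraries the values of the genes named here lay between 0.903 and 0.992.

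Libraries held 16835113 to 36975052 counts, and a count of 3 equals 0.0814 to 0.175 CPM. Ribosomal RNA genes took 8.60% of ACBI replicate 3 and 0.639% to 2.09% of the other libraries. Without that library UGT2B15 changed by log2 -1.91 with ACBI, UGT2B17 by -2.86, UGT2B11 by -1.21 and UGT2B28 by -1.39, all still called. The 10 prostate luminal markers were all detected in every group, and their sum was 4997 to 5104 CPM with 2-77, 4352 to 4550 CPM with ACBI, 6954 to 7205 CPM with BD98, 7151 to 7178 CPM with P-16 and 5748 to 5869 CPM with ENZA, against 10020 to 10110 CPM with DMSO. Hepatocyte markers, looked at because liver is the main site of the family, summed to at most 2.63 CPM in any library and immune markers to at most 0.303 CPM. PTPRC was at 0 in every group but ENZA. Stromal markers summed to at most 19.3 CPM and basal markers to at most 2.15 CPM. Neuroendocrine markers summed to 113.7 to 116.5 CPM with 2-77, 81.1 to 89.2 CPM with ACBI, 68.2 to 74.9 CPM with BD98, 91.7 to 92.6 CPM with P-16 and 55.1 to 61.2 CPM with ENZA, against 41.9 to 44.3 CPM with DMSO. ENO2 carried most of that sum, with 112.6 CPM with 2-77, 70.2 CPM with ACBI, 67.8 CPM with BD98, 89.8 CPM with P-16 and 56.1 CPM with ENZA, against 40.8 CPM with DMSO, and SYP was called higher with ACBI (log2 2.60) and not called with the other 4 compounds. CHGA and CHGB averaged under 1 CPM in all groups, and the part of these markers in the changes of the members was not tested.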

How the data were processed

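The 18 libraries, 3 per group, were made from LNCaP RNA with a stranded messenger RNA kit, per the labels' protocols. The authors deposited 1 table of expected counts, that is estimated counts per gene with decimals, not scaled to depth. Per the submitters' processing notes STAR, Partek and DESeq2 were used with hg38, with no version numbers. The quantifier, its annotation and its filters are not given in the sources used here. In the table the name SCO277 stands for 2-77, and PB_16 for P-16, by their match to the sample titles.

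Counts were rounded and tested in edgeR 4.0.16 (R 4.3.3, limma 3.58.1) with filterByExpr, TMM factors and a robust quasi-likelihood fit over all 6 groups, which left 12 residual degrees of freedom. P-values were two-sided and adjusted by Benjamini-Hochberg over 15422 genes per contrast, with a threshold of 0.05. SE is the absolute log2 fold change divided by the root of F. The sum of all members and the ratio of UGT2B15 to UGT2B17 were tested by exact permutation. Sums of the pair and of the trio were tested in edgeR, each sum taking the place of its members. The fit was run on data simulated with the same spread for all genes and changes in BD98 only. There it recovered 92% of 50 genes changed 1.5-fold and called 13 unchanged genes, with 209 genes called in all. Far more genes were called in the real contrasts, and uneven spread such as that of ACBI replicate 3 was not simulated. Between libraries of 1 group the chi-square per degree of freedom was 2.14 to 14.3, except for ACBI replicate 3 (129 and 109). Libraries were fitted without a replicate block, since the labels give same-number libraries no shared origin. Of 45 pairs of same-number libraries, 1 correlated above 0.1 in deviations from group means, and 11 did over the 10279 genes with at least 10 CPM, among them all 3 of 2-77 with ACBI.

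Transcripts were compared with Biopython 1.88 on GENCODE release 29, and figures drawn with matplotlib 3.10.9 in Python 3.11.15. The members, lists and tests were chosen with earlier results of these data known. Named besides the members were, per list and contrast, up to 3 genes with the smallest p, FOXA1, and the genes most like each member, up to 5. Some genes that this rule would name are not reported here. Alternatives were RLE factors, library totals, no filter, a stricter filter, unrounded counts, a fit of only the groups compared, DESeq2 1.42.0, the replicate number as a block, the removal of ribosomal RNA genes, sums of paralogs and the removal of each library. Floors cover counting error only, since reads carry no molecular identifiers.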

Additional observations from a re-analysis of the deposited data

How the results depend on the processing

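Under RLE factors, library totals, no filter, a stricter filter, unrounded counts, DESeq2, a replicate block and the removal of ribosomal RNA genes, all 25 values of the 5 members against DMSO and all 50 between compounds kept their direction and their side of the threshold. Counts of genes called against DMSO stayed within 1.5 times. In a fit of only the groups compared UGT2B10 no longer passed for ACBI against DMSO (log2 0.40, adjusted p = 0.059 in edgeR). Leaving out 1 library at a time gave 0.28 to 0.58 for UGT2B10 with ACBI, lost without ACBI replicate 3, DMSO replicate 2 or DMSO replicate 3, and 0.42 to 0.69 with 2-77, lost without DMSO replicate 3. Between compounds 15 such values lost their call, as did 2 in fits of only the groups compared. Sums of paralogs have the direction of their most abundant members. With UGT2B10, UGT2B11 and UGT2B28 summed the value was -0.66 with 2-77, -0.81 with ACBI and -0.38 with ENZA, opposite to UGT2B10 alone. With P-16 the value was -1.28, where UGT2B10 alone was not called (0.04). With all 5 summed it was 1.20 with 2-77, 0.90 with P-16 and 1.65 with ENZA, opposite to UGT2B11 and UGT2B28 alone, -2.13 with ACBI, opposite to UGT2B10, and the 0.90 with P-16 passed where UGT2B10 alone did not. For the summed level, edgeR with a replicate block gave 1.20 with 2-77, -2.13 with ACBI, 1.89 with BD98, 0.90 with P-16 and 1.65 with ENZA, all passing, as it did without the block, whereas the permutation of 3 against 3 libraries cannot pass. The block changed no call of a member. The ratio of UGT2B15 to UGT2B17 with BD98 ran between -0.065 and 0.029 when 1 library was left out. Depth limits UGT2B28 most, with 13 counts in its lowest library.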
